A study of Mus musculus with 5 samples.

Results

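The insulin-like growth factor (IGF) axis was examined through 9 genes in single cells of mouse liver: the ligand gene Igf1, the receptor genes Igf1r and Igf2r, and the binding protein genes Igfbp2, Igfbp3, Igfbp4, Igfbp5, Igfbp6 and Igfbp7. They were listed by name out of 19736 genes that had a column in at least 1 library, and all 9 had a column in all 5 libraries. The list was made with results of the comparison of the surgeries known, and the members were chosen by the differences of their summed molecules between sham and pIVCL, so those differences are given as a description, without p-values. All libraries came from liver constituent cells of wild-type male mice operated at 9 weeks of age and sampled 2 weeks later. In 3 libraries (pIVCL 1, 2 and 3) the surgery was partial inferior vena cava ligation, a model in which narrowing of the vein above the liver congests the organ, and in 2 libraries (sham 1 and 2) it was a sham operation. Livers were perfused with pronase and collagenase, and hepatocytes were largely removed by slow centrifugation, so hepatocyte values below come from the cells that remained. The labels give batch 2021.3 for sham 1, sham 2 and pIVCL 1 and batch 2021.7 for pIVCL 2 and pIVCL 3, so no sham library belongs to the later batch. Nothing in the labels states that libraries of a group came from separate animals, and p-values below measure only the spread between these libraries.

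IGF1 is a circulating growth hormone-dependent factor made mainly by liver, and in this organ both hepatocytes and resident macrophages transcribe its gene. It signals through the receptor tyrosine kinase IGF1R, whereas IGF2R clears IGF2 and carries mannose 6-phosphate-tagged enzymes to lysosomes. The IGF-binding proteins hold IGFs in blood and matrix and are cleaved by proteases that release the ligand, and IGFBP7 binds IGFs only weakly and is a matrix protein of vessels.

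The 5 files held 19815 cells and between 12448260 and 30523228 molecules per library, and 16672 cells were kept after filters on genes, mitochondrial molecules and doublets. Kept cells had median depths of 5400 and 5099.5 molecules in the sham libraries and of 4222, 4336 and 2888 in the pIVCL libraries. Any pair of libraries shared between 8 and 30 cell indices. Clustering without the 9 members gave 30 clusters. Of the classes named from marker genes, 8 had at least 20 cells in each library: endothelial, Kupffer, stellate, fibroblast and mesothelial, monocyte, conventional dendritic (cDC), T, and natural killer with innate lymphoid (NK and ILC1) cells. All 10 stellate markers and all 10 endothelial markers were found in their classes. Hepatocyte-list transcripts made up more of every pIVCL than of every sham library within the endothelial class (0.0520 to 0.0586% against 0.0280 and 0.0161% of molecules) and within stellate cells (0.166 to 0.214% against 0.0516 and 0.0395%). With these genes left out of the fits, 719 genes were called in the endothelial class against 722 with them, and 37 against 44 in stellate cells. Other hepatocyte transcripts stayed in those fits, so the counts do not measure the part of such transcripts, which was not tested.

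Igfbp3, Igfbp5 and Igf1r were the members with an adjusted p under 0.05 between the surgeries in at least 1 class, which is called the threshold below and describes them without supporting the choice, so the 250 bases before the start of each are shown. They are from RefSeq on GRCm38.p6, while the deposited counts were made on GRCm39. Igfbp3 lies at chr11:7213924-7214173 on the minus strand, Igfbp5 at chr1:72874866-72875115 on the minus strand and Igf1r at chr7:67952007-67952256 on the plus strand. Each sequence reads 5′ to 3′ towards the start, and capitals mark any of 5 short motifs searched on both strands: the TATA box (letters TATAAA), the GC box (letters GGGCGG), the TEAD site (letters GGAATG), the CAGA box (letters CAGACA) and the FOXO site (letters GTAAACA).
Igfbp3: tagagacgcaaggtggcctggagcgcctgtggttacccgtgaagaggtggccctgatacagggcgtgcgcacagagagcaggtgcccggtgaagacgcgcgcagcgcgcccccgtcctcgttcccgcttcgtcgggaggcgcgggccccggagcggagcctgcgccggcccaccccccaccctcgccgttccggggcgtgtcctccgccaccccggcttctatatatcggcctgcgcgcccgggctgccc
Igfbp5: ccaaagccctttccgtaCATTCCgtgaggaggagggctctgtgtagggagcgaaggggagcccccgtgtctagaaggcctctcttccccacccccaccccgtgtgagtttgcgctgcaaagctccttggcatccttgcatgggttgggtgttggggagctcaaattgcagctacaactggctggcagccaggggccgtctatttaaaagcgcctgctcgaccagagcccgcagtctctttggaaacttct
Igf1r: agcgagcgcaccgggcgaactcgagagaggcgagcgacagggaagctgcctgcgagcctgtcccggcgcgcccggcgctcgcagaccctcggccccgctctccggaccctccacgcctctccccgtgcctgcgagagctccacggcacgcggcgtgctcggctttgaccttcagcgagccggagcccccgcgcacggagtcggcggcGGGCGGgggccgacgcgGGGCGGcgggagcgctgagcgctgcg
The Igfbp3 sequence held none of the 5, the Igfbp5 sequence held 1 TEAD site and the Igf1r sequence held 2 GC boxes. Among 32851 promoters of the same length, 12.4% held the TATA box, 32.7% the GC box, 12.6% the TEAD site, 17.1% the CAGA box and 3.17% the FOXO site. Of the other members, Igfbp4 had a TATA box beginning 28 bases before the start, Igfbp6 had 1 on the other strand, Igfbp2, Igf2r and Igfbp7 had GC boxes, and Igf1 held none of the 5. G and C made up 73.2% of the Igfbp3 sequence, 58.8% of that of Igfbp5 and 77.6% of that of Igf1r.

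**Figure D1:**
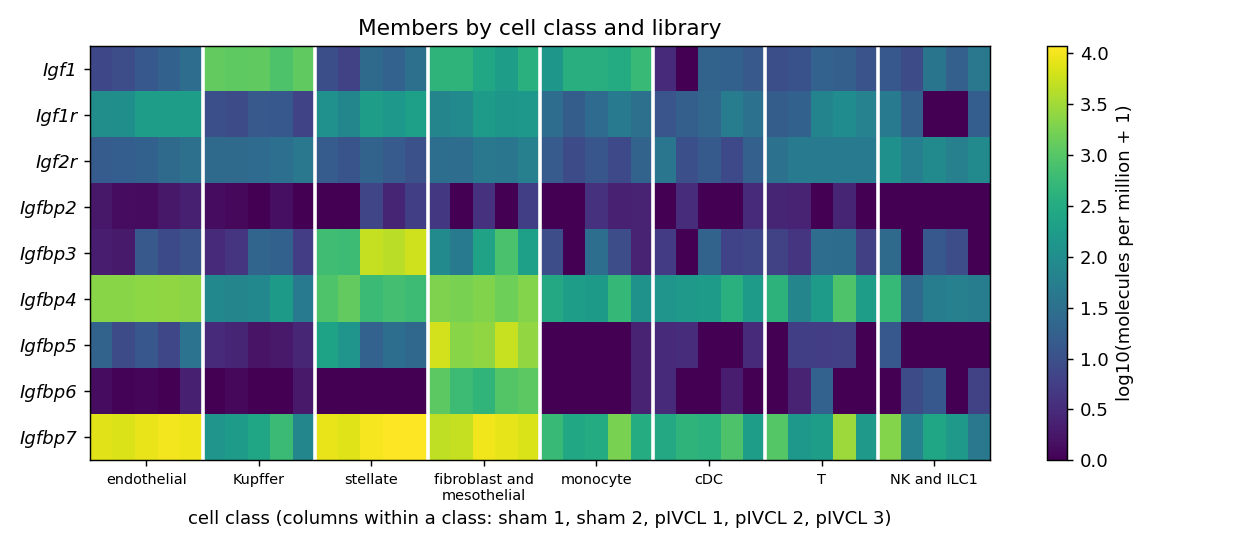
Each cell of the grid is the level of a member in 1 library and class, as log10(CPM of the class + 1). Columns are 8 cell classes with 5 libraries each, and a reader should see Igf1 brightest in Kupffer cells, Igfbp3 in pIVCL stellate cells, and Igfbp5 and Igfbp6 in the fibroblast and mesothelial class.

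Each member had its own distribution over the cell classes. Levels are given in CPM, the counts of a gene per 1000000 molecules of the class in that library, without further scaling. Shares in this paragraph are of the gene's molecules in a library's kept cells, unnamed cells included, and not of the whole file. Kupffer cells, the resident macrophages of the liver, held between 50.9% and 88.0% of a library's Igf1 molecules. The endothelial class held between 58.2% and 75.5% of Igf1r, between 65.5% and 81.0% of Igfbp4 and between 59.4% and 84.6% of Igfbp7 molecules. Stellate cells, the vitamin A-storing pericytes of the sinusoid, held 61.0% and 43.8% of the Igfbp3 molecules in the sham libraries and 90.1%, 94.96% and 95.5% in the pIVCL libraries. Igfbp5 and Igfbp6 came mostly from a small class: 260 fibroblast and mesothelial cells held between 80.0% and 85.1% of Igfbp5 and between 95.5% and 98.9% of Igfbp6 molecules. Igf2r had no single main class, with between 14.7% and 35.9% of a library's molecules in Kupffer cells and between 29.3% and 45.9% in the endothelial class. These shares also depend on how many cells of a class each library held: stellate cells were 76 and 32 in the sham libraries and 274, 324 and 106 in the pIVCL libraries.

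The ligand gene Igf1 was at similar levels in Kupffer cells of all libraries. Its level there was 1233 and 1139 CPM in sham 1 and 2 and 1208, 866 and 1174 in pIVCL 1, 2 and 3. The groups overlapped, with pIVCL 2 lowest, and the log2 fold change was -0.16 ± 0.16 (SE). After thinning to 1500 molecules, 81.3% and 79.4% of sham and 78.5%, 71.2% and 80.6% of pIVCL Kupffer cells held an Igf1 molecule. The remaining hepatocytes, which are the textbook source of circulating IGF1, had 524 and 755 CPM in sham and 492, 838 and 895 in pIVCL, with only 4 hepatocytes in sham 2. Cholangiocytes, the bile duct cells, had between 180.1 and 454 CPM, on 14 to 84 molecules per library.

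In the fibroblast and mesothelial class Igf1 was lower in all 3 pIVCL libraries, at 263, 187 and 380 CPM against 445 and 450 in sham. The groups did not overlap, but the log2 fold change of -0.68 ± 0.29 did not pass the threshold. Kupffer-list transcripts in this class were lower in pIVCL too, at 0.0112%, 0.315% and 0.127% of molecules against 0.629% and 0.561% in sham, with 8 of the 10 genes lower without overlap, and their part was not tested. In the finer clustering Igf1 overlapped in the fibroblast cluster (450.4 and 428 against 344, 111 and 773 CPM) and was lower without overlap in the mesothelial cluster (396 and 435 against 89.1, 251 and 128). Monocytes had 144 and 350 CPM in sham and 372, 323 and 552 in pIVCL, which overlapped. The monocyte cluster carried Kupffer markers at 30.9% of the level of the largest Kupffer cluster, and their part was not tested. In the endothelial class Igf1 was at 6.60 and 8.04 CPM in sham and 11.98, 17.1 and 27.0 in pIVCL. The groups did not overlap (log2 fold change 1.21 ± 0.31, not past the threshold), but T cells, which should lack the gene, had 8.38, 9.45, 18.0, 16.4 and 9.82 in the same libraries. The endothelial value was below that of T cells in sham 1, sham 2 and pIVCL 1, close to it in pIVCL 2 and above it in pIVCL 3. Of endothelial cells, 2.85% and 2.84% in sham and 4.50%, 4.95% and 9.35% in pIVCL held an Igf1 molecule, against 2.58%, 2.62%, 5.06%, 5.70% and 1.89% of T cells. Median depths were 5166, 4948, 4218, 4146 and 4531.5 molecules per endothelial cell and 3330, 3124, 2688, 2765.5 and 2386 per T cell. Endothelial Igf1 passed the threshold under 6 of 17 alternative settings and did not pass under 11. Kupffer-list transcripts in the endothelial class were 0.00838% and 0.0163% of molecules in sham and 0.00954%, 0.0419% and 0.0345% in pIVCL. Without the cluster that carried Kupffer transcripts, an alternative chosen after seeing the data, the log2 fold change was 1.37.

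The receptor gene Igf1r was higher in pIVCL than in sham in the endothelial class. It stood at 100.4 and 106.8 CPM in sham 1 and 2 and at 181.7, 191.0 and 185.0 in pIVCL 1, 2 and 3. Every pIVCL library was above both sham libraries, and the spread within each group was small against the gap (104 ± 4.54, SD, n = 2, and 186 ± 4.74, SD, n = 3). The log2 fold change was 0.76 ± 0.12, or 1.69-fold. Endothelial Igf1r and Igfbp3 were the 2 of 7 fitted members past an adjusted p of 0.05 in this class, where 6.5% of 11115 genes were called; nothing is read from that count, because the members were listed with the contrast known. Within batch 2021.3, with pIVCL 1 as the lone ligated library, the log2 fold change was 0.75. The call was lost without sham 1 (log2 fold change 0.69) and without sham 2 (0.79).

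Endothelial cells of the groups lay mostly in different clusters: clusters 10, 13 and 15 held most sham cells and clusters 8 and 11 most pIVCL cells. Igf1r was set apart by group inside some of them too. In cluster 8, led by Esm1 and Angpt2, it was at 159 and 139.6 CPM in sham and 199.7, 202 and 211 in pIVCL. In cluster 16, led by Wnt9b and Selp, it was at 44.8 and 46.1 in sham and 147, 118 and 87.3 in pIVCL, on 9 to 66 molecules. Clusters 10, 13 and 15 held only 12, 2 and 2 cells of pIVCL 3, and in each of them pIVCL 1 and 2 were above both sham libraries. In cluster 11, led by Efnb2 and Mecom, the groups overlapped, at 104 and 147 against 186, 198 and 141.

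Igf1r was also higher in the 3 pIVCL libraries in stromal cells. In stellate cells it was at 112.8 and 73.7 CPM in sham and at 184, 145 and 201 in pIVCL (log2 fold change 0.99 ± 0.26). In the fibroblast and mesothelial class it was at 71.1 and 83.8 in sham and at 169.7, 143 and 146 in pIVCL (0.99 ± 0.26). Neither difference passed the threshold. T cells had 15.1 and 17.3 CPM in sham and 67.6, 94.9 and 63.8 in pIVCL (2.22 ± 0.39), without overlap but not past the threshold, and 2.09 to 17.7% of them held a molecule. Within the T cell clusters the groups overlapped: cluster 21 had 10.5 and 5.64 in sham and 7.25, 114 and 54.7 in pIVCL, and cluster 29 had 33.5 and 77.7 in sham and 167, 34.3 and 74.4 in pIVCL. Kupffer cells had between 5.74 and 12.9 CPM, with overlapping groups.

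Igf2r, the clearance receptor, was highest among the 8 classes in lymphoid cells of the NK and ILC1 class. In Kupffer cells it was at 25.001 and 24.99 CPM in sham and at 25.8, 30.2 and 41.5 in pIVCL. In the endothelial class it was at 14.1 and 15.3 in sham and at 17.7, 24.8 and 30.5 in pIVCL, so the groups did not overlap (log2 fold change 0.61 ± 0.21). NK and ILC1 cells had the highest Igf2r levels of the 8 classes, at 108.5 and 55.8 in sham and 86.5, 57.9 and 87.7 in pIVCL. These levels rested on only 9, 7, 7, 7 and 17 molecules. The fibroblast cluster of the finer clustering had 69.6 and 45.3 in sham and 32.9, 51.3 and 102.7 in pIVCL. None of the Igf2r differences passed the threshold.

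**Figure D2:**
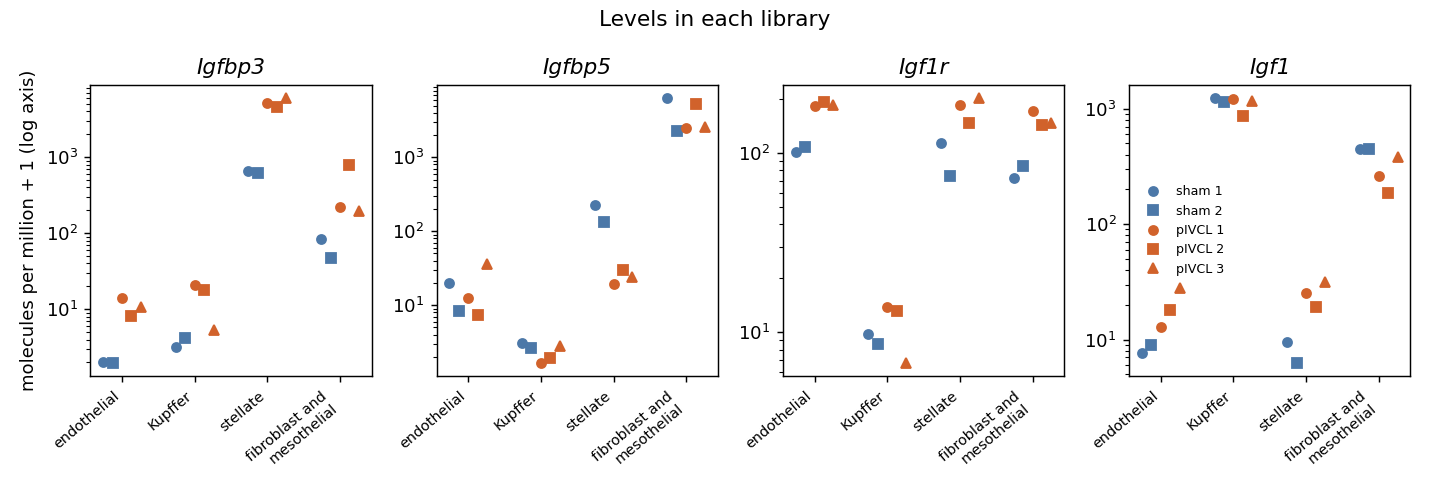
CPM of the class + 1 (log axis) for Igfbp3, Igfbp5, Igf1r and Igf1 in 4 cell classes, 1 symbol per library, blue for sham and orange for pIVCL. Stellate Igfbp3 sits between 4510.4 and 5966 in pIVCL and at 657 and 626 in sham, while Kupffer Igf1 is at a similar height in all 5 libraries.

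Igfbp3, which encodes the main carrier of IGFs in blood, differed most between the surgeries among the binding protein genes of stellate cells. Whole files held 454 and 363 Igfbp3 molecules in sham 1 and 2 and 8008, 10749 and 4628 in pIVCL 1, 2 and 3. Within stellate cells its level was 657 and 626 CPM in sham and 5115, 4510.4 and 5966 in pIVCL. All pIVCL libraries were far above both sham libraries (642 ± 22.1, SD, n = 2, against 5197 ± 731, SD, n = 3), with a log2 fold change of 3.13 ± 0.22, or 8.77-fold. Igfbp3 and Igfbp5 were the 2 of 6 fitted members with an adjusted p under 0.05 in stellate cells, where 0.549% of 8016 genes were called, and nothing is read from that count either. Over 15 alternative settings the Igfbp3 log2 fold change lay between 3.03 and 3.70, and within batch 2021.3 it was 3.11; these come from the contrast by which the gene was chosen and are no independent support. Stellate libraries also differed in endothelial-list transcripts (0.489% and 0.664% of molecules in sham, 0.0844%, 0.395% and 0.418% in pIVCL), and the part of these was not tested.

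The difference was spread over most stellate cells. The median cell held 2 Igfbp3 molecules in each sham library and 21, 24 and 32 in pIVCL 1, 2 and 3, at median depths of 3514.5, 5464, 4421, 4666.5 and 5369 molecules per cell. Cells with 10 or more Igfbp3 molecules were 4 of 76 and 4 of 32 in sham and 226 of 274, 287 of 324 and 91 of 106 in pIVCL. After thinning every cell to 1500 molecules, 51.3% and 53.1% of sham stellate cells and 97.4%, 96.0% and 98.0% of pIVCL stellate cells held a molecule. Unthinned, these were 73.7%, 71.9%, 98.5%, 99.4% and 100% of stellate cells, against 1.94%, 1.05%, 7.59%, 3.16% and 1.26% of T cells. In the finer clustering the stellate cluster gave the same picture, with 750.4 and 639 CPM in sham and 5226, 4592 and 6299 in pIVCL.

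**Figure D3:**
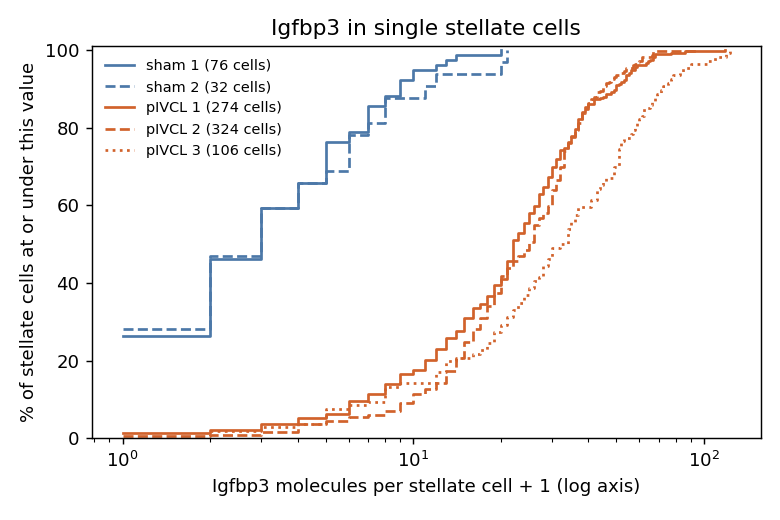
Cumulative share of stellate cells (vertical axis, percent) at or under a number of Igfbp3 molecules per cell + 1 (horizontal log axis), 1 line per library. The sham lines (blue) reach 100% by 20 molecules per cell, and the pIVCL lines (orange) have medians of 21, 24 and 32.

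Outside stellate cells Igfbp3 was lower in each library, with the fibroblast and mesothelial class next among the 8 classes. In the endothelial class it was at 1.05 and 0.961 CPM in sham and 12.9, 7.18 and 9.86 in pIVCL, on 14, 11, 86, 50 and 31 molecules. The groups did not overlap (log2 fold change 3.21 ± 0.38). Cells that should lack the gene had similar levels: Kupffer cells were at 2.19 and 3.21 in sham and 19.98, 17.1 and 4.41 in pIVCL, and T cells at 5.03, 3.15, 27.1, 26.2 and 4.91. An Igfbp3 molecule was held by 0.442%, 0.495%, 5.48%, 2.60% and 3.41% of endothelial cells, below the share of T cells in every library except pIVCL 3. In those 4 libraries no expression is read from the endothelial level, and whether it came from RNA of other cells was not tested. The T cell levels rested on 3, 2, 6, 16 and 2 molecules, with 8 of the 16 in 1 cell. Adding the large-vessel endothelial cluster, an alternative chosen after seeing the data, lowered the endothelial log2 fold change to 2.14. The fibroblast and mesothelial class had 83.6 and 46.1 in sham and 222, 787 and 196 in pIVCL (log2 fold change 2.64 ± 0.80, not past the threshold). In pIVCL 2 a single cell held 84 of the 160 molecules, and without the largest cell of each library the levels were 49.8, 34.9, 150.5, 374 and 149. The pIVCL 2 value of this class was above the sham stellate levels. In the finer clustering the Igfbp3 groups overlapped in the fibroblast cluster, at 208.9 and 100.7 CPM in sham and 197.6, 1119.6 and 181.2 in pIVCL. They also overlapped in the mesothelial cluster, at 36.27 and 40.03 in sham and 9.91, 291.2 and 205.1 in pIVCL.

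Igfbp5, whose product binds to matrix, was mainly a mesothelial transcript. In the fibroblast and mesothelial class it was at 6299.8 and 2252 CPM in sham and 2507, 5301 and 2542 in pIVCL, so the groups overlapped (log2 fold change -0.28 ± 0.50). The finer clustering held separate mesothelial and fibroblast clusters, which together have more cells than the class and so include cells from outside it. The mesothelial cluster of 129 cells had 9172 and 4472 CPM in sham and 9054, 9780.0 and 4109 in pIVCL, whereas the fibroblast cluster of 150 cells had 418 and 287 in sham and 84.2, 1846 and 96.6 in pIVCL. The large-vessel endothelial cluster, led by Cyp1a1, Gja5 and Vwf and not counted in the endothelial class, held Igfbp5 at 304 and 305 in sham and 569, 724 and 127 in pIVCL, in 17.4% of its 432 cells.

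In stellate cells Igfbp5 was lower in pIVCL, at 18.3, 29.1 and 23.0 CPM against 228 and 132 in sham. The groups did not overlap and the log2 fold change of -2.82 ± 0.31 had an adjusted p under the threshold, but few cells carried it. The 81 and 25 sham molecules came from 6 of 76 and 2 of 32 cells, and single cells held 34 and 14 of them. In pIVCL 4, 4 and 3 cells held 24, 53 and 15 molecules, of which single cells held 20, 44 and 12. In the finer clustering the log2 fold change was -1.42 and no longer passed, and it also did not pass without sham 1 (-2.31). The stellate cells with an Igfbp5 molecule carried transcripts of the fibroblast and mesothelial lists at 0.173% and 0.0820% of their molecules in sham, against 0.0546% and 0.0362% in the other stellate cells. In pIVCL these were 0.330%, 0.465% and 0.0189% against 0.0647%, 0.0484% and 0.0700%. In the stellate cluster of the finer clustering Igfbp5 was at 32.3 and 0 CPM in sham and 3.12, 1.12 and 23.0 in pIVCL, so there the groups overlapped.

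Igfbp6, whose product prefers IGF2, was found almost only beside Igfbp5 in the fibroblast and mesothelial class. There it was at 1119 and 616 CPM in sham and 459.7, 954 and 1097 in pIVCL, with overlapping groups (log2 fold change -0.04 ± 0.38). The mesothelial cluster had 1609 and 1175 in sham and 1654, 1697 and 1765 in pIVCL. Stellate cells had 0 Igfbp6 molecules in every library, and the endothelial class had 5, 1, 1, 0 and 4.

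**Figure D4:**
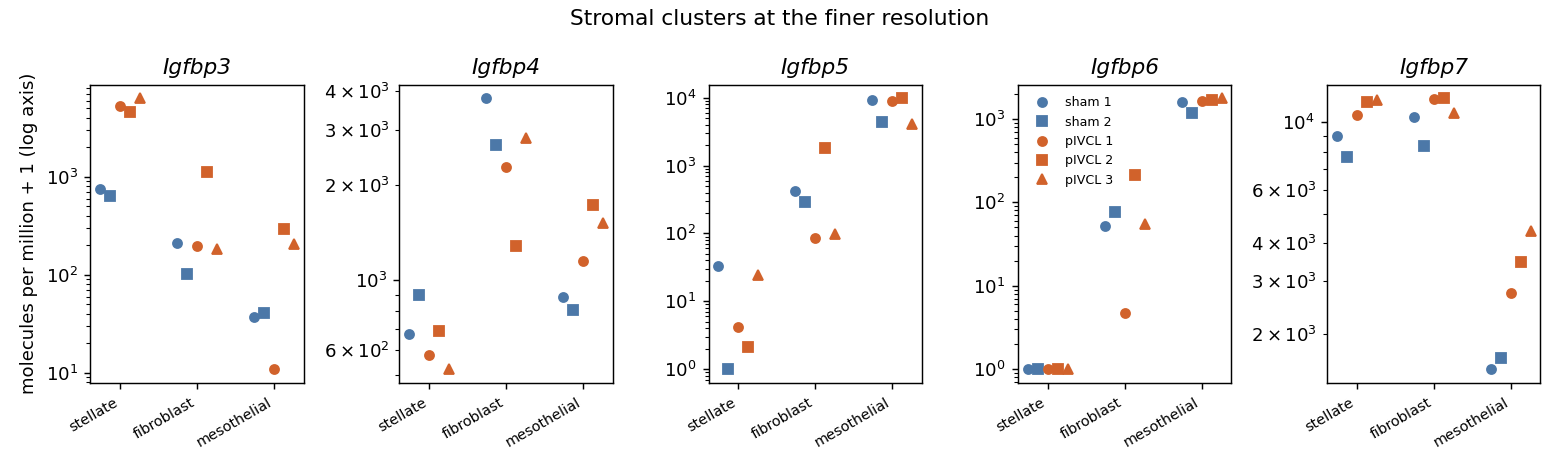
CPM + 1 (log axis) of 5 binding protein genes in the stellate, fibroblast and mesothelial clusters of the finer clustering, 1 symbol per library. Igfbp3 is highest in pIVCL stellate cells, Igfbp5 and Igfbp6 are highest in the mesothelial cluster in all 5 libraries, and stellate Igfbp6 is at 0.

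Most Igfbp4 and Igfbp7 molecules were in the endothelial class, but neither gene was particular to it: Igfbp7 was higher in stellate than in endothelial cells in every library, and the finer fibroblast cluster had Igfbp4 at 1282 to 3775 and Igfbp7 at 8362 to 11991 CPM. Igfbp4, an inhibitory carrier that is cleaved by the protease PAPPA, was at 2238 and 2249 CPM in the sham and 2372, 2457 and 2336 in the pIVCL endothelial class. The pIVCL values lay just above the sham values, but after scaling between libraries the log2 fold change was 0.00 ± 0.13. In stellate cells Igfbp4 was lower in all pIVCL libraries, at 594, 721 and 606 against 880.1 and 1221 in sham (log2 fold change -0.59 ± 0.22), without passing the threshold. Endothelial-list transcripts in stellate cells were lower in pIVCL as well, at 0.0844%, 0.395% and 0.418% of molecules against 0.489% and 0.664% in sham, and their part was not tested. In the stellate cluster of the finer clustering Igfbp4 overlapped, at 675 and 899 CPM in sham and 577, 689 and 521 in pIVCL.

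Igfbp7 was at 7793 and 7281 CPM in the sham and 8588, 10136 and 9262 in the pIVCL endothelial class (log2 fold change 0.22 ± 0.14). In stellate cells it was at 8742 and 7397 in sham and 10537, 11638 and 11763 in pIVCL (0.61 ± 0.19), and in the fibroblast and mesothelial class at 4779 and 5226 in sham and 9575, 8271 and 6863 in pIVCL (0.74 ± 0.31). In each of these 3 classes every pIVCL library was above both sham libraries, and none of the 3 differences passed the threshold. In the mesothelial cluster of the finer clustering it was at 1534 and 1664 in sham and 2734, 3454 and 4396 in pIVCL. T cells varied from 145 to 2996 CPM in Igfbp7, with the highest values in sham 1 (1007) and pIVCL 2 (2996), the same libraries in which endothelial-list transcripts in T cells were highest (0.322% and 0.627% of molecules against 0.0266 to 0.0504% in the others). NK and ILC1 cells of sham 1 likewise had 2061 CPM of Igfbp7 and 0.556% endothelial-list transcripts.

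Igfbp2, made by hepatocytes in adult liver, was too sparse to be fitted in any of the 8 classes. Whole files held 52 and 37 molecules in sham and 16, 127 and 64 in pIVCL. Hepatocytes held 17 and 23 of them in sham and 1, 1 and 30 in pIVCL. In stellate cells there were 0 and 0 molecules in sham and 8, 3 and 3 in pIVCL, and no fold is given.

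**Figure D5:**
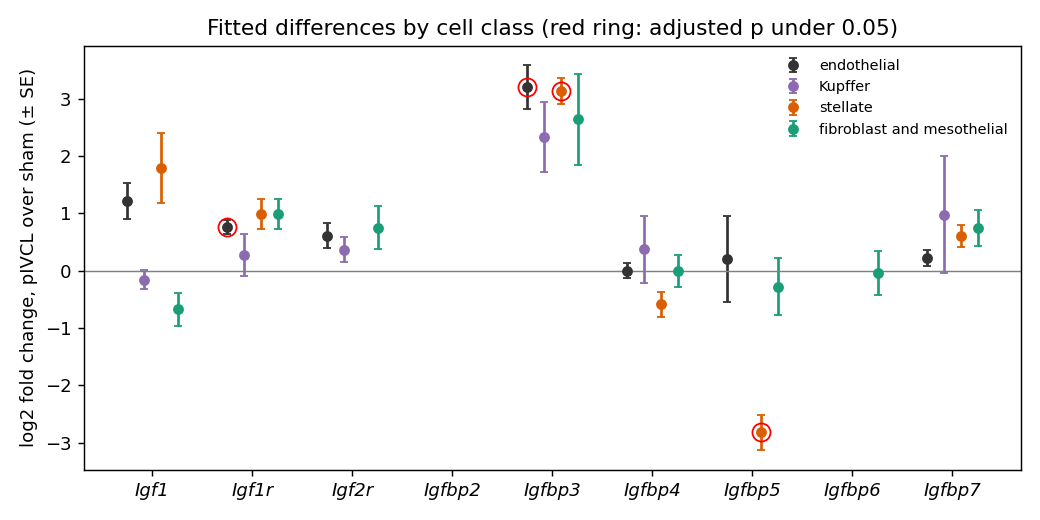
Log2 fold change of pIVCL over sham with its standard error for the members fitted in 4 cell classes, from summed counts of 2 sham and 3 pIVCL libraries. Red rings mark an adjusted p under 0.05: Igf1r and Igfbp3 in the endothelial class, Igfbp3 (3.13) and Igfbp5 (-2.82) in stellate cells.

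Across the classes, 7 members could be fitted in the endothelial class, 6 in stellate and 6 in Kupffer cells, 8 in the fibroblast and mesothelial class, 5 in T cells, 4 in monocytes, 3 in cDC and 2 in NK and ILC1 cells. The others had too few molecules there for the low-count filter, which a gene high in 1 group passes more easily. No member passed the threshold in the 6 classes other than endothelial and stellate, where 0.102% (Kupffer), 1.44% (fibroblast and mesothelial), 0.101% (monocyte), 0.644% (cDC), 0.035% (NK and ILC1) and 0% (T) of genes were called. In T cells edgeR called 0 of 7531 genes, with 352 (4.67%) at an unadjusted p under 0.05, and DESeq2 called 1. Groups did not overlap for 6 of the 7 endothelial members, all higher in pIVCL, beside 28.3% of endothelial genes. All 6 fitted stellate members were without overlap, 4 higher and 2 lower, beside 12.6% and 22.3% of stellate genes. In the fibroblast and mesothelial class 4 were higher and 1 lower without overlap, beside 13.5% and 16.6% of genes. Fitted members higher without overlap numbered 2 in Kupffer cells (beside 17.2% of genes), 1 in T cells (10.6%) and 2 in cDC (17.2%). No fitted member was without overlap in monocytes or in NK and ILC1 cells, where 27.1% and 23.8% of genes had groups without overlap. Members with too few molecules to be fitted are not in these counts. Nothing is read from these counts. The median log2 fold change was 0.61 over the 7 endothelial members and 0.01 over all endothelial genes. Because the members were listed with the contrast known, nothing is read from that gap either.

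Among 44 other genes of the IGF pathway, 33 could be fitted in the endothelial class, where 3 rose, 1 fell and 29 did not pass (edgeR quasi-likelihood test, Benjamini-Hochberg adjustment over all genes), beside 3.39% and 3.1% of all genes tested. Their median log2 fold change was -0.02. Stc2, whose product stanniocalcin 2 inhibits the protease PAPPA, rose from 0.300 and 0.350 CPM in sham to 5.24, 6.03 and 12.7 in pIVCL. Its log2 fold change was 4.40 ± 0.56 with an adjusted p of 0.00494 by edgeR, lost without sham 1 (adjusted p = 0.0544 by edgeR). At its very low sham levels Stc2 passed the low-count filter only through the pIVCL libraries, where it was high. Its p-value is therefore given as a description and not as support. Socs2, a growth hormone-induced inhibitor of its receptor, rose from 34.1 and 36.8 to 77.7, 73.8 and 125 CPM (1.27 ± 0.21, adjusted p = 0.0147 by edgeR). Ghr, the growth hormone receptor, rose from 16.3 and 17.04 to 28.2, 25.3 and 31.5 (0.67 ± 0.15, adjusted p = 0.0385 by edgeR).

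Pik3r1, the regulatory subunit of phosphoinositide 3-kinase, fell from 124 and 138 to 94.6, 92.6 and 105 CPM (-0.52 ± 0.12, adjusted p = 0.0354 by edgeR). The Ghr call was lost under 9 of 17 alternatives, the Pik3r1 call under 7 and the Socs2 call under 3, among them the fits without sham 1, without sham 2 and with batch as a term. Insr, the insulin receptor, was at 73.7 and 72.8 in sham and 57.1, 59.4 and 59.1 in pIVCL and did not pass (adjusted p = 0.0753 by edgeR). By sublist, 1 of 5 fitted protease and inhibitor genes, 2 of 6 growth hormone axis genes and 1 of 16 downstream kinases and factors passed, and none of 4 receptors and adaptors or 2 IGF2 mRNA-binding genes. No other ligand or carrier gene could be fitted. In the other 7 classes edgeR called 0 of 13 to 30 fitted pathway genes.

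Other ligand and carrier genes had few molecules, with the most for Igfbp1 in pIVCL 2, where 353 cells held it. The files held 1, 2, 3, 0 and 2 molecules of Igf2, the fetal ligand, and pIVCL 2 had no column for it. Igfals, the acid-labile subunit of the circulating complex, had 13, 12, 8, 50 and 15 molecules, and Igfbp1 had 40, 28, 48, 427 and 63. Ghr in the remaining hepatocytes was at 273 and 486 CPM in sham and 548, 381 and 318 in pIVCL.

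Genes with the most similar pattern to each member were ranked by Pearson correlation of log2(CPM + 1) over 40 profiles (8 classes in 5 libraries) among 8300 genes. These are descriptions, since profiles share libraries and classes. Igfbp7 was closest to Amotl2 (r = 0.976), Col4a1 (0.969) and Ltbp4 (0.967), and Igfbp4 to Sema3f (0.942), Ces2g (0.938) and Rhoj (0.937). Igfbp3 was closest to Sod3 (0.918), Wfdc1 (0.912) and Ms4a4d (0.911), of which Sod3 was also among the leading genes of the stellate cluster. Igfbp5 was closest to Egfl6 (0.947), Sulf1 (0.940) and Adamtsl1 (0.933), and Igfbp6 to Pkhd1l1 (0.959), Krt19 (0.949) and Lvrn (0.941). Igf1 was closest to Lilra5 (0.907), Cebpb (0.907) and Fpr1 (0.895), and Igf1r to Ctdsp2 (0.904), Nr2f2 (0.897) and Col4a2 (0.895). Igf2r was closest to Camk2g (0.789), Usp24 (0.782) and Klra9 (0.759), and Igfbp2 to Car3 (0.567), Inmt (0.537) and Ptprf (0.536). Among the members themselves, Igfbp4 and Igfbp7 were most alike (0.935), and Igf1r and Igfbp4 had 0.828.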

How the data were processed

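Single-cell RNA was captured with BD Rhapsody whole-transcriptome chemistry in 5 libraries (2 sham, 3 pIVCL), per the labels' protocols. The authors deposited counts of molecules per gene and cell, corrected for molecular identifiers in pipeline version 1.9.1 (per the file headers) with genome build GRCm39 (per the submitters' processing notes). Cells with under 500 molecules, under 200 genes or over 25% mitochondrial molecules were left out, and the 3% with the highest Scrublet score per library were removed, since the automatic threshold marked only 14 of 17188 cells. Free RNA was not corrected.

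In scanpy 1.11.5, 2000 variable genes without the members, 30 principal components and 20 neighbours gave Leiden clusters at resolution 1. A class needed at least 3 markers and 50% of its list. Clusters with too few markers stayed unnamed, as did clusters with over 20% of the marker level of another main class. Others whose leading genes went against the name also stayed unnamed (1518 cells in all). The 20% rule was not applied to Kupffer markers in monocytes and cDC, nor to stellate markers in fibroblast and mesothelial clusters. The monocyte cluster was thus kept at 30.9% of the Kupffer marker level. The 20% level and the joining of fibroblasts with mesothelial cells were set after clusters were seen. Counts were summed per class and library, filtered with filterByExpr, scaled by TMM and tested with edgeR 4.0.16 (quasi-likelihood, R 4.3.3), with Benjamini-Hochberg adjustment over all genes of a class at 0.05. The tests were also run on counts simulated with the dispersions of these data and without a batch. That check cannot speak to the batch or to how stable the calls are. Alternatives were DESeq2 1.42.0, its size factors, no filter, batch terms, left-out libraries, other cell filters, doublets kept, resolution 2 and removal of hepatocyte-list genes. Named genes are all members, pathway genes that passed together with Igf2, Igfals, Igfbp1, Ghr and Insr, and the 3 genes most like each member. The members, gene lists and tests were chosen with earlier results of these data known. Counts limit precision most in stellate cells of sham (76 and 32 cells).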

Additional observations from a re-analysis of the deposited data

Results flagged for a closer look

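For Igf1 and Igfbp4 every pIVCL library lay on one side of both sham libraries in one cell class and on the other side in another. The difference between the classes was not tested. Igf1 was higher in pIVCL in the endothelial class and lower in the fibroblast and mesothelial class, log2 fold changes that differed by 1.89, and its stellate value differed from that of the fibroblast and mesothelial class by 2.47. Endothelial Igf1 was above the T cell level in pIVCL 2 and pIVCL 3 only, and stellate Igf1 rested on 3 and 1 molecules in sham. In the fibroblast and mesothelial class Kupffer-list transcripts were lower in pIVCL along with Igf1 (0.0112%, 0.315% and 0.127% against 0.629% and 0.561% of molecules), and in the finer fibroblast cluster the Igf1 groups overlapped, with pIVCL 3 at 773 CPM. Unscaled Igfbp4 levels were lower in pIVCL in stellate cells and higher in cDC and, slightly, in the endothelial class, where the fitted log2 fold change was 0.00 ± 0.13. The log2 fold change in stellate cells was 0.59 below the endothelial and 1.32 below the cDC value. In cDC Igfbp4 was at 133 and 156 CPM in sham and 173, 386 and 175 in pIVCL, with pIVCL 2 far above the others. Its log2 fold change there ranged from 0.17 to 0.95 over 13 alternatives and did not pass the threshold. Endothelial-list transcripts in stellate cells were also lower in pIVCL (0.0844%, 0.395% and 0.418% against 0.489% and 0.664% of molecules).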

How the results depend on the processing

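The members were chosen by this contrast, so the stability of their values is no independent support. The stellate Igfbp3 log2 fold change ranged from 3.03 to 3.70 over 15 alternatives. The endothelial one ranged from 2.14 to 3.61 over 17, on levels below those of T cells in 4 of 5 libraries. Endothelial Igf1r ranged from 0.69 to 0.79 and was not called under 2 of 17, and stellate Igfbp5 ranged from -3.24 to -1.42 and was not called under 2 of 14. Of 667 alternative values of members and called pathway genes, 610 kept the sign of the reported value and 57 did not, none of these for a called gene. The number of genes called was unstable in most classes. Reported counts were 722 (endothelial), 10 (Kupffer), 44 (stellate), 105 (fibroblast and mesothelial), 6 (monocyte), 43 (cDC), 1 (NK and ILC1) and 0 (T). With the DESeq2 Wald test the counts were 1135, 117 and 93 in endothelial, Kupffer and stellate cells, and 13, 21, 2 and 1 in monocytes, cDC, NK and ILC1, and T cells. Without a filter on low counts they were 2005, 435, 328, 481, 97, 155, 50 and 2 in the order of the reported counts. With batch as a term, 446, 0, 301, 241, 12 and 0 were called in endothelial, Kupffer, stellate, fibroblast and mesothelial, cDC, and NK and ILC1 cells. Within batch 2021.3 alone, with the lone pIVCL library assumed to vary like the sham libraries, 279, 594, 60, 98, 4 and 1 were called in stellate, fibroblast and mesothelial, monocyte, cDC, NK and ILC1, and T cells. With doublets kept, 19, 133, 32 and 53 were called in Kupffer, stellate, fibroblast and mesothelial cells and monocytes, and with stricter cell filters 1, 84, 33, 0 and 0 in Kupffer, stellate, fibroblast and mesothelial, monocyte, and NK and ILC1 cells. At resolution 2 the counts were 15, 42, 1, 0 and 5 in stellate, monocyte, cDC, NK and ILC1, and T cells. No value was obtained for cDC with doublets kept or stricter filters, nor for stellate Igf1 and Igfbp5 with stricter filters. Leaving out 1 library gave 63 to 2744 in endothelial, 0 to 417 in Kupffer, 4 to 226 in stellate, 21 to 164 in fibroblast and mesothelial cells, 1 to 80 in monocytes, 34 to 73 in cDC, 0 to 83 in NK and ILC1 and 0 to 1 in T cells. The highest counts came without pIVCL 1, except in NK and ILC1 cells (without sham 2) and in T cells (without pIVCL 1 or pIVCL 2); the lowest endothelial count came without sham 1 and the lowest stellate count without sham 2. The cause was not tested.

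Whether replicate numbers pair the libraries was not settled: deviations of same-numbered libraries correlated between -0.56 and 0.14. Deviations of the sham libraries from their own mean are exact opposites. The correlations of a class are therefore not independent and cannot show that pairing is absent. A replicate block gave 47 calls in Kupffer, 224 in stellate, 31 in fibroblast and mesothelial cells, 85 in cDC and 10 in NK and ILC1 cells.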
